A study of Mus musculus with 12 samples.

Results

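Axl, Tyro3 and Mertk are the 3 receptors of the TAM family of receptor tyrosine kinases, and Gas6 and Pros1 are their vitamin K-dependent ligands. These 5 genes, chosen by symbol and matched to their Ensembl gene IDs, are 5 of the 54232 genes counted in 12 RNA-seq libraries from MMTV-NIC cells, a mouse breast cancer model. The AXL KO hypoxia and AXL KO normoxia groups were cells labelled as AXL knockout, held in 1% and 21% oxygen. The AXL WT hypoxia and AXL WT normoxia groups were cells with intact AXL, held in the same 2 oxygen levels. Each group had 3 libraries. The series names the difference between AXL KO and AXL WT cells in hypoxia as its subject.

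All 4 groups share the MMTV-NIC background, in which the mouse mammary tumour virus promoter drives one transcript that encodes an activated form of the receptor Neu (ErbB2) and the Cre recombinase. How Axl was inactivated, whether the knockout cells are 1 clone or several, and how long the cells stayed in hypoxia are not stated in the labels. The genotype tag of 6 samples follows the oxygen level and contradicts the sample title, so groups were taken from the titles. The labels do not say whether the 3 libraries of each group are separate cultures. The p-values therefore measure the spread among libraries, and that spread may be technical.

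TAM receptors are surface kinases that bind Gas6 and protein S. Both ligands carry an amino-terminal Gla domain whose glutamates are carboxylated in a vitamin K-dependent reaction, and this domain binds phosphatidylserine on apoptotic cells and membrane debris. Gas6 binds all the TAM receptors, whereas protein S, the product of Pros1 and also a plasma anticoagulant, is known as a ligand of TYRO3 and MERTK. MERTK is best known for the engulfment of apoptotic cells by macrophages and retinal pigment epithelium, AXL for survival, migration and drug tolerance of tumour cells, and TYRO3 for roles in the nervous system and in limiting immune responses.

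The data show 4 things about these genes. Axl RNA was nearly absent from AXL KO cells and was one of the most abundant receptor kinase RNAs of AXL WT cells. Gas6 RNA was found in AXL KO cells and, but for a single count, not in AXL WT cells. Mertk RNA was low in AXL WT normoxia and stood at a similar higher level in the other 3 groups. Pros1 RNA was lower in hypoxia in AXL KO cells and higher in hypoxia in AXL WT cells.

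The windows around the start sites of Axl, Mertk and Gas6 are shown as those of the targeted gene and of the receptor and the ligand that were higher in AXL KO in normoxia. Each holds 250 bases before to 50 bases after the RefSeq start site, from the RefSeq promoter table (GRCm38.p6), which held all 5 genes. Capitals mark the GC box GGGCGG or its reverse complement, the core of a site bound by factors of the Sp family. The Axl window lies at chr7:25788684-25788983 on the minus strand, the Mertk window at chr2:128698665-128698964 on the plus strand, and the Gas6 window at chr8:13494486-13494785 on the minus strand.
Axl: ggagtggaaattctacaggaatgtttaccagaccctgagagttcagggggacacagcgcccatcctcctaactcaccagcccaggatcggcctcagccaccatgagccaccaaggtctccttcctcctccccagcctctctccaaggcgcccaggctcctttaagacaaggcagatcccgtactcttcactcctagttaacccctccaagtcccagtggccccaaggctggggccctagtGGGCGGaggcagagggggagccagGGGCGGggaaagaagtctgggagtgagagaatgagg
Mertk: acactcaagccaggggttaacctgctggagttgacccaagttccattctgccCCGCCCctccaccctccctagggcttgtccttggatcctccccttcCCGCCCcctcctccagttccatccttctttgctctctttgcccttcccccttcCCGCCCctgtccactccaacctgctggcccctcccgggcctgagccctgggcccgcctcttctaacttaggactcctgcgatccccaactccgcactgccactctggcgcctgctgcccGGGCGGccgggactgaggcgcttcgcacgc
Gas6: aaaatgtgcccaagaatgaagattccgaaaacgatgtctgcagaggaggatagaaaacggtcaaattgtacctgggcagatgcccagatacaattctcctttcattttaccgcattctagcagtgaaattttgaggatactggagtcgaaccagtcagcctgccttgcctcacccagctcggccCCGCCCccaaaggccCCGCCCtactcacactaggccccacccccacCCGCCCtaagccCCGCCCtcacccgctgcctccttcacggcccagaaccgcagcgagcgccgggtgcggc

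Searched on both strands, the GC box occurred 2 times in the Axl window, 6 times in the Tyro3 window, 4 times in the Mertk window, 4 times in the Gas6 window and 5 times in the Pros1 window. In the Tyro3 and Pros1 windows some of these matches overlap one another. Of all 32851 promoter windows of this length, 35.7% hold at least one GC box. The hypoxia response core ACGTG, which 19.6% of all windows hold, was in none of the 5. The related core GCGTG, held by 32.4% of all windows, occurred once each in the Tyro3 and Mertk windows. The TEAD motif GGAATG (14.7% of all windows) occurred once, in the Axl window, and the AP-1 motif TGANTCA (7.81% of all windows) in none of the 5. CpG dinucleotides numbered 6 in the Axl window, 31 in the Tyro3 window, 14 in the Mertk window, 17 in the Gas6 window and 21 in the Pros1 window, against a median of 7 over all windows. A match is a run of letters and not a measured binding site.

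Libraries held 45297267 to 58775422 counts in genes. The first principal component, with 60.3% of the variance, separated the genotypes, and the second, with 25.8%, separated hypoxia from normoxia. The AXL WT hypoxia libraries stood apart from each other, with a biological coefficient of variation of 0.402 within that group, against 0.0740 in AXL KO hypoxia, 0.0895 in AXL KO normoxia and 0.0585 in AXL WT normoxia. For the 5 genes, the named pathway genes and the pathway list counts, the comparisons that use that group were refitted without its libraries 2 and 3. A printed log2 fold change or list count is given again from that refit where its call changed or it moved by 1.5 times or more, and for the pathway genes and lists this was chosen after the data were seen. With those 2 left out the group has 1 library, which is then assumed to vary like the other groups. Of 8 luminal epithelial markers, 7 reached 1 CPM in all libraries of each group, and Krt19 stayed at or below a mean of 0.151 CPM. Of these 7, 3 were lower in AXL KO in hypoxia and 4 in normoxia, and 0 were higher. Over all genes 33.0% and 30.0% were lower. Epcam averaged 9.31 and 7.10 CPM in AXL KO hypoxia and normoxia, against 64.1 and 22.1 CPM in AXL WT, while Krt8 and Krt18 were not called. Of 6 basal markers 4 were tested, with 1 higher and 2 lower in AXL KO at each oxygen level. The 9 hypoxia check genes, such as Vegfa and Ndrg1, included 9 that rose in hypoxia in AXL KO and 8 that rose in AXL WT. In normoxia all 9 of them were also higher in AXL KO than in AXL WT, with a median log2 fold change of 1.75.

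Levels are depth-scaled counts (CPM) with TMM factors, and levels of different genes are compared only per kilobase of exon. Fold changes come from edgeR's quasi-likelihood test over all 12 libraries, and called genes are those whose p, adjusted by Benjamini-Hochberg over all 16767 genes tested, was under 0.05. Of the 5 genes, 5 of 5 passed the filter on low counts, Gas6 only through its level in AXL KO cells. Values after ± are SDs over 3 libraries for levels and standard errors for log2 fold changes. Because the libraries are bulk RNA, fewer cells with an RNA and less of it in each cell cannot be told apart.

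**Figure D1:**
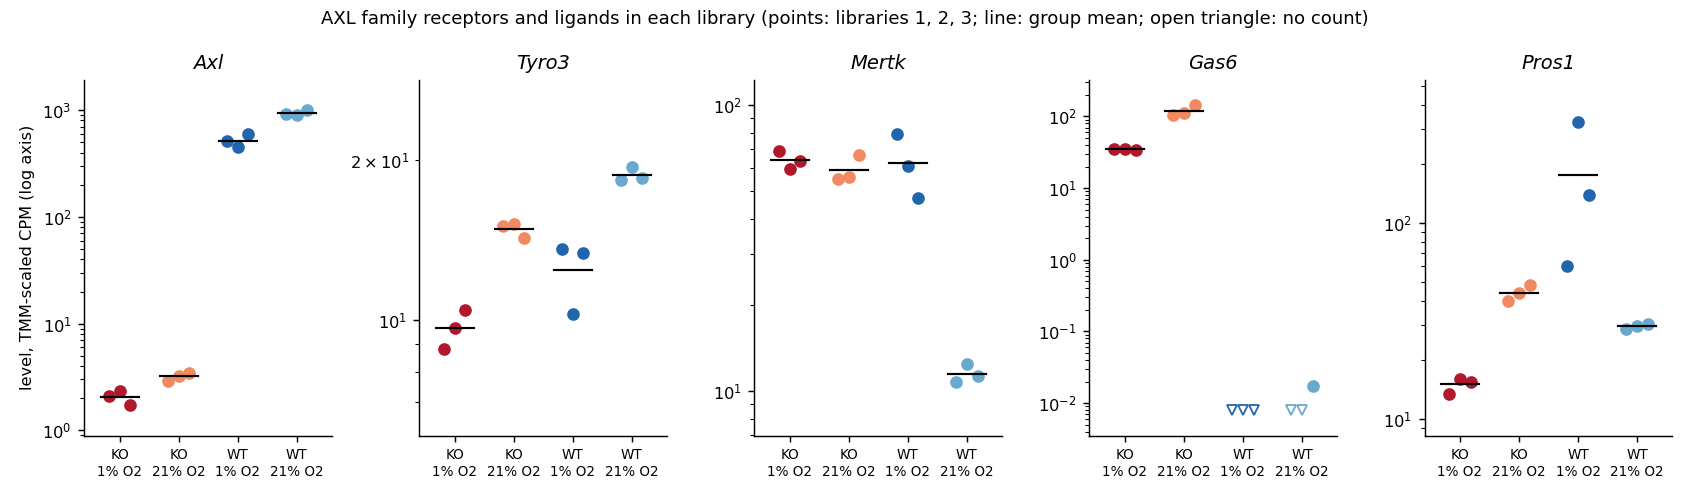
Level of each gene in each library, in TMM-scaled CPM on a log axis with its own range per gene, by group. Filled points are the 3 libraries of a group, black lines the group means (none drawn for Gas6 in AXL WT), and open triangles libraries without a count, placed at an arbitrary height below the single-count library. Gas6 is present in the 6 AXL KO libraries, Mertk is low in AXL WT normoxia, and Pros1 spreads from 60.0 to 326 CPM in AXL WT hypoxia.

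Axl (ENSMUSG00000002602, GRCm38 chromosome 7, 25757273 to 25788705, minus strand), the targeted gene, encodes a receptor of Gas6. It stood at 2.09, 2.35 and 1.72 CPM in AXL KO hypoxia (78 to 105 counts per library) and at 2.93, 3.26 and 3.47 CPM in AXL KO normoxia (164 to 200 counts). In AXL WT the levels were 509.6, 455 and 592 CPM under hypoxia and 911, 892 and 1000.2 CPM under normoxia. No AXL KO library came near any AXL WT library, so the RNA of the targeted gene separates the libraries as their titles do.

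The remaining Axl RNA in AXL KO cells was 0.395% of the AXL WT level in hypoxia and 0.345% in normoxia. The log2 fold change of AXL KO against AXL WT was −7.98 ± 0.17 in hypoxia (adjusted p = 2.83e-11) and −8.18 ± 0.17 in normoxia (adjusted p = 2.03e-11). Since counts are per gene, they do not show which part of the transcript the remaining reads cover.

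Axl also fell in hypoxia in both genotypes. The log2 fold change of hypoxia against normoxia was −0.65 ± 0.14 in AXL KO (adjusted p = 0.002), at a low level, and −0.85 ± 0.12 in AXL WT (adjusted p = 0.000106). Hypoxia and normoxia libraries did not overlap in either genotype. The difference between these responses, AXL KO minus AXL WT, was 0.20 ± 0.19 with a 95% interval of −0.21 to 0.61 (adjusted p = 0.463), so a difference was not detected.

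Tyro3 (ENSMUSG00000027298, chromosome 2, 119797733 to 119818104, plus strand) encodes a receptor that binds both ligands. Its levels were 8.83, 9.68 and 10.5 CPM in AXL KO hypoxia and 15.0, 15.1 and 14.2 CPM in AXL KO normoxia. In AXL WT they were 13.6, 10.3 and 13.3 CPM in hypoxia and 18.3, 19.4 and 18.5 CPM in normoxia. Hypoxia libraries lay below normoxia libraries within each genotype, and the hypoxia libraries of the genotypes overlapped.

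Tyro3 fell in hypoxia by a similar factor in both genotypes. Its log2 fold change was −0.61 ± 0.13 in AXL KO (adjusted p = 0.00186) and −0.60 ± 0.13 in AXL WT (adjusted p = 0.0021). The difference of the responses was −0.02 ± 0.19, with a 95% interval of −0.42 to 0.39 (adjusted p = 0.969).

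Tyro3 was slightly lower in AXL KO than in AXL WT. Its log2 fold change was −0.36 ± 0.13 in hypoxia (adjusted p = 0.0319) and −0.34 ± 0.13 in normoxia (adjusted p = 0.0404). Both calls are marginal: over the alternatives the adjusted p ran from 0.00184 to 0.168 in hypoxia and from 0.000615 to 0.163 in normoxia. The hypoxia call was lost without AXL KO hypoxia library 1 (−0.29, adjusted p = 0.126) or 2 (−0.35), AXL KO normoxia library 2 (−0.35), or AXL WT hypoxia library 1 (−0.28) or 3 (−0.30). The normoxia call was lost without any single library of AXL KO hypoxia, AXL KO normoxia or AXL WT normoxia, with values between −0.35 and −0.28.

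Mertk (ENSMUSG00000014361, chromosome 2, 128698956 to 128802894, plus strand) encodes the TAM receptor of phagocytes. Its levels were 69.2, 59.8 and 63.4 CPM in AXL KO hypoxia and 55.1, 55.7 and 66.7 CPM in AXL KO normoxia. In AXL WT they were 79.1, 61.2 and 47.2 CPM in hypoxia and 10.8, 12.4 and 11.3 CPM in normoxia. AXL WT normoxia stood alone at the low end, and the libraries of the other 3 groups overlapped.

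In normoxia Mertk was 5.15-fold higher in AXL KO than in AXL WT (log2 fold change 2.36 ± 0.17, adjusted p = 3.11e-07). In hypoxia the log2 fold change was 0.04 ± 0.16, with a 95% interval of −0.32 to 0.39 (adjusted p = 0.852). Mertk rose 5.43-fold in hypoxia in AXL WT (log2 fold change 2.44 ± 0.17, adjusted p = 5.54e-07). In AXL KO the log2 fold change of hypoxia against normoxia was 0.12 ± 0.16, with a 95% interval of −0.24 to 0.47 (adjusted p = 0.566).

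The hypoxia responses of Mertk differed between the genotypes by −2.33 ± 0.23, AXL KO minus AXL WT (adjusted p = 4.63e-05). Without AXL WT hypoxia libraries 2 and 3 this difference was −2.68 (adjusted p = 2.71e-10, against 2.53e-18 to 0.000367 over all alternatives). The Mertk comparison of AXL KO with AXL WT in hypoxia then turned to −0.31 (adjusted p = 0.0270, against 0.0270 to 0.994 over all alternatives). Library 1 is the highest of that group for Mertk.

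Mertk shares its strand with a small nucleolar RNA gene, Gm23172, which had at most 15 counts in a library, and the antisense gene Gm14011 had 0 counts in all libraries. The longest run of bases shared by transcripts of any pair of TAM receptors was 14. Macrophages express Mertk, so their markers are given beside it. Summed over 10 macrophage and leukocyte markers, the level was 94.0 to 97.7 CPM in AXL KO hypoxia, 102 to 129 CPM in AXL KO normoxia, 71.7 to 329 CPM in AXL WT hypoxia and 56.7 to 63.0 CPM in AXL WT normoxia. C1qa had no count in any library, Tyrobp had none outside AXL KO normoxia (mean 0.0179 CPM), Ptprc stayed at or below a mean of 0.0663 CPM, and Adgre1 was counted only in AXL WT hypoxia (mean 0.177 CPM). The sums came mainly from Cd68, Cd14 and, in AXL WT hypoxia alone, Csf1r (mean 63.9 CPM, against at most 0.117 CPM elsewhere). Cd68 averaged 51.9 and 71.4 CPM in AXL KO hypoxia and normoxia, and 7.04 and 11.5 CPM in AXL WT hypoxia and normoxia. In normoxia Cd68 was higher in AXL KO by 2.64 ± 0.19 on the log2 scale, as Mertk was. In AXL WT, Cd68 had its lower mean in hypoxia, and Mertk its higher mean. Cd14 averaged 43.7 and 44.8 CPM in AXL KO hypoxia and normoxia, and 119 and 47.3 CPM in AXL WT hypoxia and normoxia. The part of these markers in the Mertk result was not tested.

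**Figure D2:**
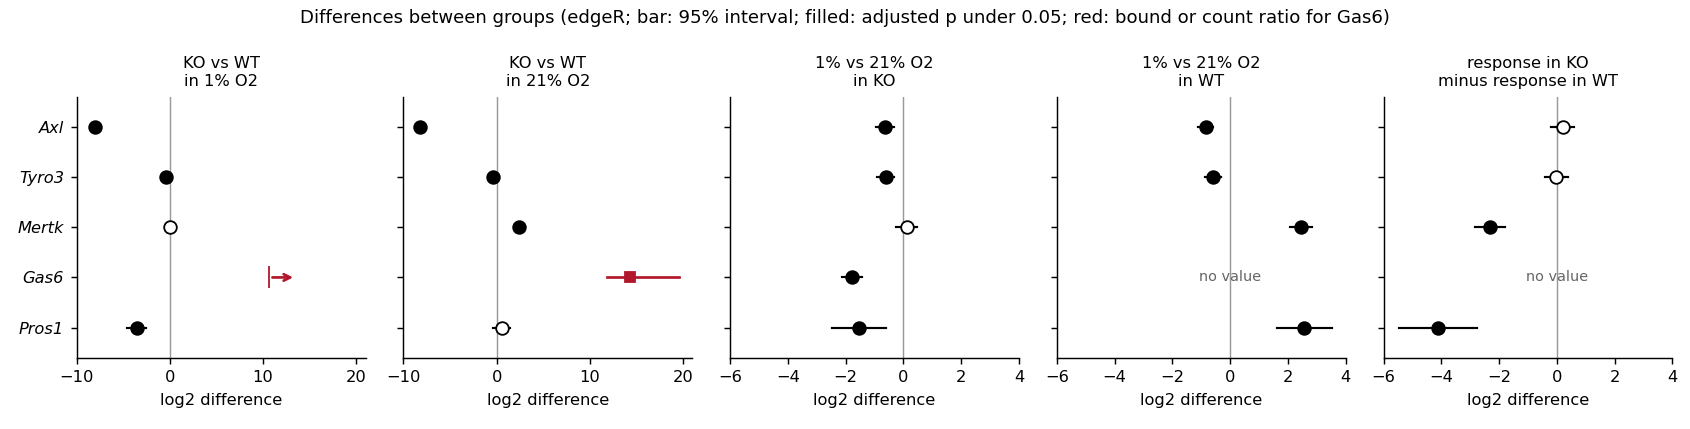
Log2 difference of each gene in the 4 comparisons of groups and in the difference between hypoxia responses, with 95% intervals as bars. Filled points passed an edgeR adjusted p of 0.05 and open points did not; for Gas6 a red arrow starts at the lower bound and a red square gives the ratio to a single count with its interval. Mertk and Pros1 are the genes whose hypoxia response differed between the genotypes.

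Gas6 (ENSMUSG00000031451, chromosome 8, 13465374 to 13494490, minus strand) encodes the ligand of all the TAM receptors. It had 1441, 1579 and 1545 counts in AXL KO hypoxia and 5912, 6577 and 8210 counts in AXL KO normoxia. In AXL WT it had 0 counts in the 3 hypoxia libraries, and 0, 0 and 1 counts in the normoxia libraries. The genotypes were thus separated completely, at depths of at least 45297267 counts a library.

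As levels, Gas6 stood at 34.9, 35.4 and 34.0 CPM in AXL KO hypoxia and at 106, 113 and 142 CPM in AXL KO normoxia. With a floor of 3 counts over the AXL WT hypoxia group, Gas6 was at least 1577-fold higher in AXL KO in hypoxia. In normoxia its ratio to the single AXL WT count was 20234, with an exact 95% counting interval of 3631 to 799243 that covers counting error only. That count lies in library 3, and without this library AXL WT normoxia has none.

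Within AXL KO, Gas6 fell in hypoxia to 0.289 of its normoxia level (log2 fold change −1.79 ± 0.16, adjusted p = 1.08e-05), with no overlap of libraries. No fold is given for hypoxia in AXL WT or for the difference of responses, since both AXL WT groups are at or under the floor. The opposite-strand gene Tmem255b, which overlaps the end of Gas6, had at most 5 counts in a library.

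Fibroblasts are a common source of Gas6, and the 8 fibroblast markers are given beside it. Their summed level was 58.9 to 65.5 CPM in AXL KO hypoxia, 186 to 201 CPM in AXL KO normoxia, 72.8 to 96.3 CPM in AXL WT hypoxia and 66.2 to 72.7 CPM in AXL WT normoxia. Pdgfrb averaged 9.27 and 122 CPM in AXL KO hypoxia and normoxia, and 13.9 and 15.6 CPM in AXL WT hypoxia and normoxia. Pdgfra averaged 9.38 and 38.3 CPM in AXL KO hypoxia and normoxia, and 56.4 and 51.5 CPM in AXL WT hypoxia and normoxia, so it was not higher in AXL KO. Col1a1 averaged 40.6 and 20.2 CPM in AXL KO hypoxia and normoxia, and 16.0 and 0.838 CPM in AXL WT hypoxia and normoxia. Within AXL KO, Col1a1 was higher in hypoxia (log2 fold change 1.01 ± 0.23, adjusted p = 0.00274), and Gas6 was lower. Dcn averaged 3.12 and 11.7 CPM in AXL KO hypoxia and normoxia, and 0.732 and 0.299 CPM in AXL WT hypoxia and normoxia. Within AXL KO, Dcn was lower in hypoxia (log2 fold change −1.91 ± 0.27, adjusted p = 9.54e-05), as Gas6 was. Col3a1 stayed at or below a mean of 0.975 CPM, and Lum, Thy1 and Dpt at or below 0.0216 CPM, in every group. The part of these markers in the Gas6 result was not tested.

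Pros1 (ENSMUSG00000022912, chromosome 16, 62854307 to 62929346, plus strand) encodes protein S. Its levels were 13.4, 15.9 and 15.5 CPM in AXL KO hypoxia and 39.8, 43.6 and 48.1 CPM in AXL KO normoxia. In AXL WT they were 60.0, 326 and 139 CPM in hypoxia and 28.7, 29.5 and 30.5 CPM in normoxia. No 2 groups overlapped, but the highest AXL WT hypoxia library was 5.43 times the lowest, against at most 1.21 times in the other groups.

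The oxygen response of Pros1 ran in opposite directions in the genotypes. In AXL KO it fell to 0.341 of the normoxia level in hypoxia (log2 fold change −1.55 ± 0.43, adjusted p = 0.00837), and in AXL WT it rose 5.91-fold (2.56 ± 0.44, adjusted p = 0.000371). The responses differed by −4.12 ± 0.61, AXL KO minus AXL WT (adjusted p = 0.000563). Pros1 was lower in AXL KO than in AXL WT in hypoxia (−3.55 ± 0.46, adjusted p = 4.04e-05). In normoxia the log2 fold change was 0.57 ± 0.42, with a 95% interval of −0.34 to 1.48 (adjusted p = 0.259), although the AXL KO libraries all lay above the AXL WT libraries.

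The size of the Pros1 differences depended on AXL WT hypoxia library 2. Without it the log2 fold change was 1.76 for hypoxia in AXL WT, −2.74 for AXL KO against AXL WT in hypoxia and −3.31 for the difference of responses. Without libraries 2 and 3 these values were 1.03 (adjusted p = 2.15e-07), −2.01 (adjusted p = 3.56e-11) and −2.58 (adjusted p = 3.41e-10). Over all alternatives the adjusted p reached 0.00836, 0.00284 and 0.00528 for these comparisons, in the same order. In the same 3 AXL WT hypoxia libraries Erbb2 stood at 2407, 131 and 359.5 CPM, so library 2 was the highest for Pros1 and the lowest for Erbb2. Whether the state of that library accounts for its Pros1 level was not tested. The normoxia comparison of genotypes was called at a nearly equal size where those libraries did not enter the spread (0.56, adjusted p = 1.78e-05 with the 6 normoxia libraries alone, against 4.93e-06 to 0.522 over all alternatives), and also without AXL WT hypoxia library 1 (0.57, adjusted p = 0.0342) or 2 (0.57, adjusted p = 0.0452).

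The calls among the 5 are set here against all genes, most of which were called in each comparison of 2 groups. Whether the 5 differ from that background was not tested. The genotype counts include Axl, the targeted gene, and Gas6, whose direction the filter fixed in advance. In AXL KO against AXL WT in hypoxia 1 gene was higher and 3 were lower, against a background of 63.0% called over all genes (29.9% higher and 33.0% lower). In normoxia 2 were higher and 2 lower, where 59.7% of all genes passed (29.7% higher and 30.0% lower). In AXL KO 4 of the 5 fell in hypoxia and none rose, where 58.0% of all genes were called (27.3% higher and 30.6% lower). In AXL WT 2 rose and 2 fell in hypoxia among the 4 with a value, where 59.8% of all genes were called (29.2% higher and 30.7% lower). The difference of responses was called for 2 of 4, against 28.8% over all genes (13.5% higher and 15.3% lower).

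The split of all calls depends on the scaling. With library size alone the higher genes made up 35.8% of calls in place of 49.7% for AXL KO against AXL WT in normoxia, 36.0% in place of 47.1% for hypoxia in AXL KO, and 33.2% in place of 48.8% for hypoxia in AXL WT. The all-gene median of the log2 fold change then moved to −0.29, −0.23 and −0.32 in these comparisons, and to −0.21 for AXL KO against AXL WT in hypoxia, where it had been −0.04 to −0.02 with TMM. Among the 5 genes only log2 fold changes of Mertk and Tyro3 that were near 0 changed sign under this scaling.

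Within each gene the order of groups differed. Axl and Tyro3 both had their highest mean in AXL WT normoxia and their lowest in AXL KO hypoxia. Axl fell in the order AXL WT normoxia, AXL WT hypoxia, AXL KO normoxia and AXL KO hypoxia, with no overlap between neighbours. For Tyro3 the order was AXL WT normoxia, AXL KO normoxia, AXL WT hypoxia and AXL KO hypoxia, of which the last 2 overlapped. Mertk had AXL KO hypoxia, AXL WT hypoxia and AXL KO normoxia overlapping at the top and AXL WT normoxia apart below them. Gas6 was highest in AXL KO normoxia, and Pros1 in AXL WT hypoxia and lowest in AXL KO hypoxia.

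Per length, the make-up of the TAM receptor RNA was nearly inverted between genotypes. The summed level of Axl, Tyro3 and Mertk was 16.8 ± 0.990 CPM per kb in AXL KO hypoxia and 16.7 ± 1.48 in AXL KO normoxia, against 119 ± 12.4 in AXL WT hypoxia and 191 ± 11.3 in AXL WT normoxia. Mertk made up 88.2% ± 1.29 of that sum in AXL KO hypoxia and 81.8% ± 1.73 in AXL KO normoxia, against 12.2% ± 3.46 in AXL WT hypoxia and 1.39% ± 0.151 in AXL WT normoxia. The share of Axl was 2.44% ± 0.463 and 3.84% ± 0.195 in AXL KO hypoxia and normoxia, against 86.1% ± 3.51 and 97.0% ± 0.271 in AXL WT hypoxia and normoxia. Tyro3 made up 9.33% ± 1.16 and 14.4% ± 1.65 in AXL KO hypoxia and normoxia, against 1.67% ± 0.120 and 1.58% ± 0.123 in AXL WT hypoxia and normoxia. The shares were not tested, and the loss of Axl in AXL KO is part of each of them.

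The receptors other than Axl give a sum that does not contain the targeted gene. Tyro3 plus Mertk stood at 16.4 ± 1.01 CPM per kb in AXL KO hypoxia, 16.0 ± 1.43 in AXL KO normoxia, 16.4 ± 3.74 in AXL WT hypoxia and 5.67 ± 0.286 in AXL WT normoxia. Mertk exceeded Tyro3 by a ratio of 9.57 ± 1.41 per length in AXL KO hypoxia, 5.74 ± 0.833 in AXL KO normoxia and 7.31 ± 1.95 in AXL WT hypoxia. In AXL WT normoxia the ratio was 0.877 ± 0.0363, with slightly more Tyro3 than Mertk.

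**Figure D3:**
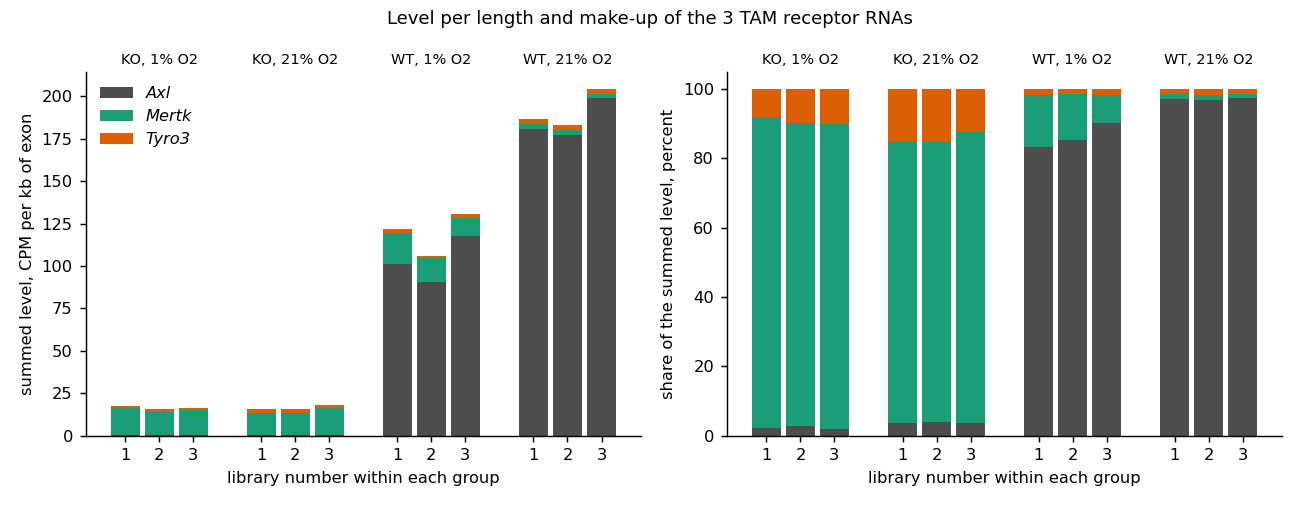
Left, the summed level of Axl, Mertk and Tyro3 in each library in TMM-scaled CPM per kb of exon; right, the share of each receptor in that sum, in percent, with 1 bar per library. Mertk makes up most of the sum in the AXL KO libraries, and Axl in the AXL WT libraries, where Mertk reaches 15.0% in AXL WT hypoxia library 1.

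The ligand RNA also differed in make-up between the genotypes. Gas6 made up 78.9% ± 1.54 of the summed ligand level per length in AXL KO hypoxia and 81.4% ± 1.04 in AXL KO normoxia, against 0% and 0.0306% ± 0.0530 in AXL WT hypoxia and normoxia, where Pros1 was nearly the whole. Gas6 plus Pros1 summed to 17.3 ± 0.411 CPM per kb in AXL KO hypoxia and 58.0 ± 8.57 in AXL KO normoxia, against 42.8 ± 33.4 in AXL WT hypoxia and 7.24 ± 0.225 in AXL WT normoxia. The ratio of ligand to receptor RNA was 1.04 ± 0.0840 in AXL KO hypoxia and 3.47 ± 0.211 in AXL KO normoxia, against 0.377 ± 0.332 in AXL WT hypoxia and 0.0379 ± 0.00147 in AXL WT normoxia. The AXL WT hypoxia values vary nearly as much as their mean because of Pros1. The receptor sum in the ratio contains Axl, the targeted gene, so the loss of Axl is part of the higher ratios in AXL KO. A ratio without Axl was not taken.

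Among 58 receptor tyrosine kinases, Axl ranked 30th by mean level per length in AXL KO hypoxia and 26th in AXL KO normoxia, against 3rd in AXL WT hypoxia and 2nd in AXL WT normoxia. Mertk ranked 10th and 13th in AXL KO hypoxia and normoxia, against 12th and 20th in AXL WT hypoxia and normoxia. Tyro3 stayed between 18th and 24th in all groups. Erbb2, whose counts do not separate the mouse gene from the Neu transgene, ranked first in each group mean. In AXL WT hypoxia its mean of 185 CPM per kb covers libraries from 25.1 to 462 CPM per kb. In single AXL WT hypoxia libraries Axl ranked 3rd, 2nd and 1st.

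The 5 kinases with the highest mean level per length are named here for each group. In AXL KO hypoxia they were Erbb2, Fgfr1, Ddr1 (a collagen receptor), Ptk7 and Epha2, and in AXL KO normoxia Erbb2, Ptk7, Fgfr1, Ephb4 and Ddr1. In AXL WT hypoxia they were Erbb2, Epha2, Axl, Ddr1 and Fgfr1, and in AXL WT normoxia Erbb2, Axl, Epha2, Ddr1 and Ptk7. Axl in AXL WT normoxia (186 ± 11.5 CPM per kb) stood above Epha2 (57.3 ± 6.59), and no kinase in AXL KO normoxia but Erbb2 (107 ± 15.5) exceeded 100 CPM per kb on average.

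**Figure D4:**
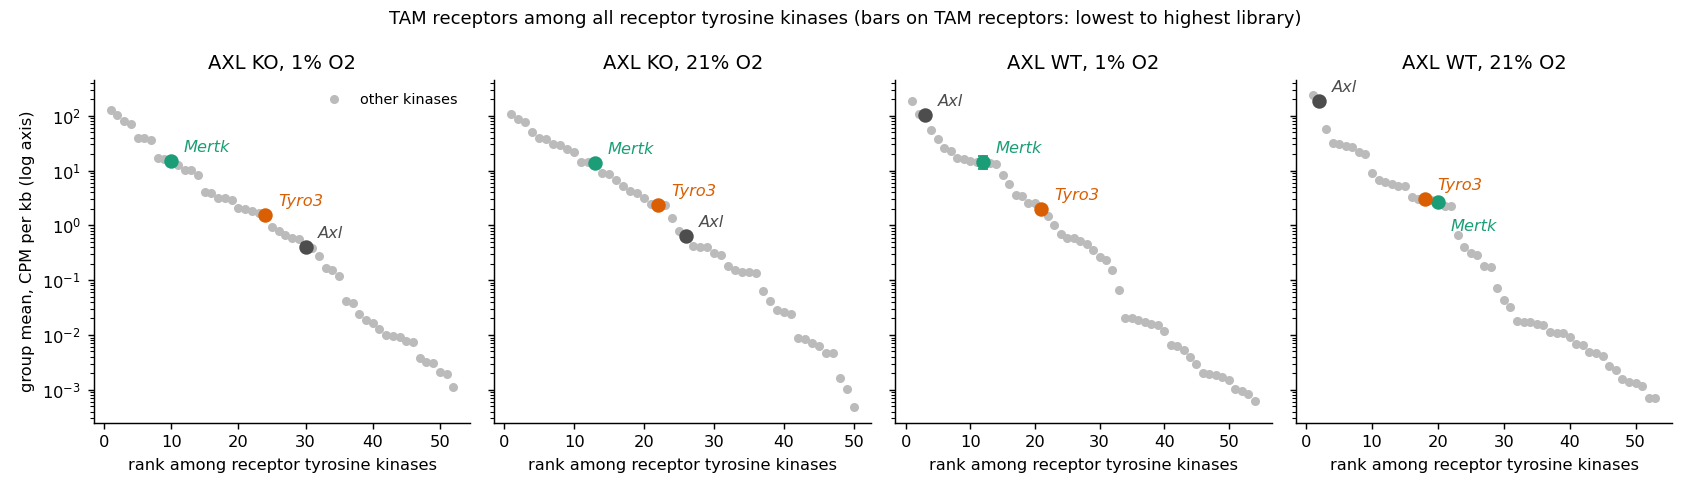
Mean level per kb of exon of each receptor tyrosine kinase with a count, on a log axis, against its rank among 58 kinases, 1 panel per group. Coloured points are the TAM receptors with bars from their lowest to their highest library. Axl holds rank 30 and 26 in the AXL KO panels and rank 3 and 2 in the AXL WT panels, and Mertk is lowest, at rank 20, in AXL WT normoxia.

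Of the 55 receptor tyrosine kinases outside the TAM family, 39 were tested. In hypoxia 19 were higher, 11 lower and 9 not called in AXL KO against AXL WT (median log2 fold change 0.33), where 29.9% of all genes were higher and 33.0% lower (median −0.04). In normoxia 21 were higher, 5 lower and 13 not called (median 0.81), where 29.7% of all genes were higher and 30.0% lower (median −0.03). The neurotrophin receptor Ntrk3, which had the smallest adjusted p of the list in hypoxia, averaged 494 ± 5.83 CPM in AXL KO hypoxia and 741 ± 71.5 CPM in AXL KO normoxia, against 10.8 ± 3.02 CPM in AXL WT hypoxia and 0.533 ± 0.158 in AXL WT normoxia. Its log2 fold change of AXL KO against AXL WT was 5.51 ± 0.23 in hypoxia and 10.43 ± 0.29 in normoxia (adjusted p = 3.37e-09 and 1.91e-10). The VEGF receptor Kdr (8.72 ± 0.40 in hypoxia) and the ephrin receptors Epha4 (2.68 ± 0.15) and Ephb2 (5.47 ± 0.32, and 6.45 without AXL WT hypoxia libraries 2 and 3) were higher in AXL KO too. Kdr had 5 and 14 counts in AXL WT hypoxia and normoxia and passed the filter on low counts only through AXL KO. For it a higher value there was fixed in advance. The same holds for Fgfr2, Kit, Ntrk2 and Epha6, which stood at or below a mean of 0.00228 CPM per kb in each AXL WT group. Csf1r in turn was near 0 outside AXL WT hypoxia, where it averaged 13.1 CPM per kb. The counts of this list include such genes and were not taken without them. Kdr is also an endothelial marker, and the other 6 markers of that list stayed at or below a mean of 0.483 CPM in every group.

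Of 5 genes of vitamin K-dependent carboxylation 4 were tested, namely the carboxylase Ggcx and enzymes that reduce vitamin K for it. In hypoxia 4 of 4 were higher in AXL KO and none lower (median log2 fold change 0.62), where 29.9% of all genes were higher and 33.0% lower (median −0.04). In normoxia 3 of 4 were higher and none lower (median 1.24), where 29.7% of all genes were higher and 30.0% lower (median −0.03). Without AXL WT hypoxia libraries 2 and 3 the hypoxia count was 3 of 4. Ggcx, which modifies the Gla domain of both ligands, averaged 27.9 ± 1.49 CPM in AXL KO hypoxia and 96.3 ± 11.9 CPM in AXL KO normoxia, against 19.5 ± 6.68 CPM in AXL WT hypoxia and 15.1 ± 1.23 in AXL WT normoxia. Its log2 fold change of AXL KO against AXL WT was 0.52 ± 0.21 in hypoxia (adjusted p = 0.0444) and 2.67 ± 0.22 in normoxia (adjusted p = 7.39e-07). The hypoxia value was 1.15 without those 2 libraries. From normoxia to hypoxia in AXL KO, Ggcx fell by 1.79 on the log2 scale (SE 0.21, adjusted p = 2.69e-05), as Gas6 did. Vkorc1, which recycles vitamin K epoxide, was higher in AXL KO than in AXL WT by 1.79 ± 0.13 in hypoxia and 1.53 ± 0.12 in normoxia. Aifm2, a vitamin K reductase, was higher in AXL KO by 0.60 ± 0.12 in hypoxia and 0.95 ± 0.12 in normoxia. Vkorc1l1 was higher in AXL KO by 0.64 ± 0.21 in hypoxia, with a value of 0.19 ± 0.20 in normoxia (adjusted p = 0.429). Vkorc1l1 lost its call in hypoxia without those 2 libraries (0.14, adjusted p = 0.277).

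Of 14 other genes for Gla-domain proteins 6 were tested. In AXL KO 4 were higher and 2 lower in hypoxia, against 29.9% and 33.0% of all genes. In normoxia 4 were higher and none lower, against 29.7% and 30.0%. Prrg1, Prrg3 and Ucma passed the filter on low counts only through AXL KO, so for them a higher value there was fixed in advance. Without AXL WT hypoxia libraries 2 and 3, 1 was lower in hypoxia. Prrg1 and Prrg3, membrane proteins with a Gla domain, averaged 26.5 ± 1.83 and 10.1 ± 0.300 CPM in AXL KO hypoxia, against 0.0659 ± 0.0573 and 0 CPM in AXL WT hypoxia. Prrg3 was at least 458-fold higher in AXL KO than in AXL WT in hypoxia and at least 824-fold higher in normoxia. Mgp, an inhibitor of calcification, stood at 26.2 ± 2.00 CPM in AXL KO hypoxia and 2734 ± 303 CPM in AXL KO normoxia, against 5.98 ± 5.51 CPM in AXL WT hypoxia and 48.8 ± 8.55 in AXL WT normoxia. Ucma, a Gla protein of cartilage, had 62 and 180 counts in AXL KO hypoxia and normoxia, against 3 and 1 counts in AXL WT hypoxia and normoxia.

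Of 3 other proteins reported as TAM ligands, 2 were tested. Lgals3, galectin-3, was lower in AXL KO by 0.28 ± 0.10 in hypoxia and 1.03 ± 0.10 in normoxia on the log2 scale (adjusted p = 0.0267 and 3.22e-06). Tub stayed at or below a mean of 0.999 CPM in every group and was lower in AXL KO in hypoxia (−2.99 ± 0.72, adjusted p = 0.00322; −1.91 without AXL WT hypoxia libraries 2 and 3).

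Proteases that shed the receptors, and their regulators, went both ways. In hypoxia 2 of 7 were higher, 2 lower and 3 not called in AXL KO (median log2 fold change −0.11), where 29.9% of all genes were higher and 33.0% lower. In normoxia 4 were higher, 1 lower and 2 not called (median 0.66), where 29.7% of all genes were higher and 30.0% lower. Adam17, a sheddase of AXL and MERTK, averaged 234 ± 20.1 CPM in AXL KO hypoxia and 326 ± 20.1 CPM in AXL KO normoxia, against 74.7 ± 9.89 CPM in AXL WT hypoxia and 67.4 ± 1.41 in AXL WT normoxia. Adam17 was higher in AXL KO on the log2 scale, by 1.65 ± 0.11 in hypoxia and 2.28 ± 0.11 in normoxia. Timp3, an inhibitor of Adam17, averaged 677 ± 13.4 CPM in AXL KO hypoxia and 543 ± 76.7 CPM in AXL KO normoxia, against 1.67 ± 0.675 CPM in AXL WT hypoxia and 0.274 ± 0.0603 in AXL WT normoxia. Its log2 fold change of 8.66 ± 0.28 in hypoxia and 10.94 ± 0.32 in normoxia makes it the largest in this list (adjusted p = 5.89e-10 and 2.69e-10), with 9.40 in hypoxia without AXL WT hypoxia libraries 2 and 3. Adam10 was lower in AXL KO in hypoxia (−1.48 ± 0.23, adjusted p = 0.000187; −0.65 without those 2 libraries) and had a value of 0.34 ± 0.23 in normoxia (adjusted p = 0.22). Furin, a protease that activates the ADAM sheddases, was lower in AXL KO, at −1.17 ± 0.21 in hypoxia and −0.61 ± 0.21 in normoxia.

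**Figure D5:**
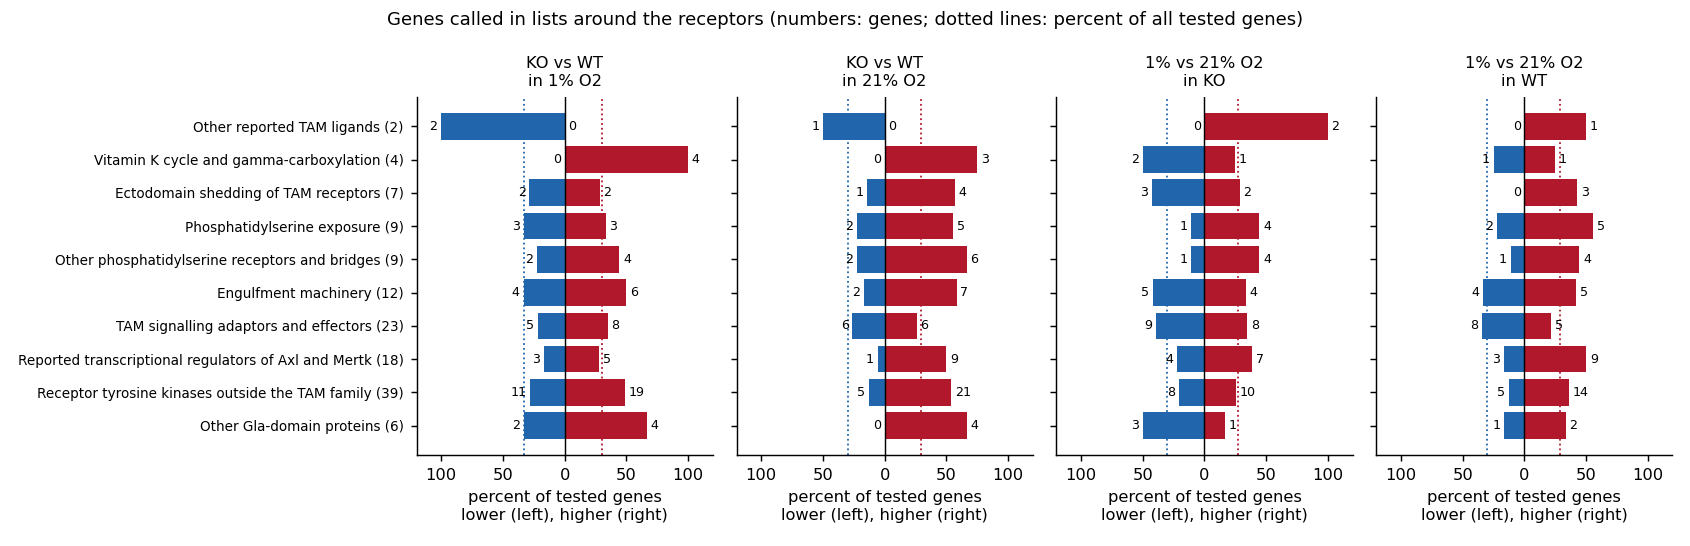
Percent of the tested genes of each list that were higher (right, red) or lower (left, blue) in each comparison, with the number of genes at the bar and the number tested in brackets. Dotted lines give the same percent over all 16767 genes tested. The vitamin K list reaches 4 of 4 higher in AXL KO in hypoxia, and the signalling list lies near the dotted lines.

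Genes that expose or hide phosphatidylserine, the lipid that the ligands bind, split evenly in hypoxia, with 3 of 9 higher, 3 lower and 3 not called in AXL KO, close to the 29.9% higher and 33.0% lower over all genes. In normoxia 5 were higher and 2 lower, against 29.7% and 30.0%. Xkr8, a caspase-activated scramblase, was higher in AXL KO by 1.97 ± 0.18 in hypoxia and 1.01 ± 0.17 in normoxia on the log2 scale. Tmem30a, the flippase subunit, was higher in AXL KO by 0.58 ± 0.08 and 0.68 ± 0.08. The flippases Atp11a and Atp11b were lower in AXL KO, Atp11a by 1.14 ± 0.18 in hypoxia and 0.49 ± 0.18 in normoxia and Atp11b by 0.75 ± 0.09 in hypoxia and 0.64 ± 0.09 in normoxia on the log2 scale.

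Of other receptors and bridges for phosphatidylserine, 9 of 14 were tested. In AXL KO 4 were higher and 2 lower in hypoxia, and 6 higher and 2 lower in normoxia. Itgb3 had 49 and 73 counts in AXL KO hypoxia and normoxia, against 3 and 0 in AXL WT. Itgb3 and Cd300a passed the filter on low counts only through AXL KO, so for them a higher value there was fixed in advance. Without AXL WT hypoxia libraries 2 and 3, 10 were tested and 3 were lower in hypoxia. Over all genes 29.9% were higher and 33.0% lower in hypoxia, and 29.7% higher and 30.0% lower in normoxia. Edil3, a secreted bridge to integrins, was higher in AXL KO by 3.05 ± 0.14 in hypoxia and 3.45 ± 0.14 in normoxia on the log2 scale. Lrp1, an engulfment receptor with many ligands, averaged 1718 ± 163 CPM in AXL KO hypoxia and 1472 ± 239 CPM in AXL KO normoxia, against 324 ± 99.2 CPM in AXL WT hypoxia and 251 ± 21.9 in AXL WT normoxia. Havcr2, known as TIM-3, was lower in AXL KO than in AXL WT by 4.68 ± 0.30 in hypoxia and 5.18 ± 0.33 in normoxia on the log2 scale. Cd300a, a receptor for phosphatidylserine on leukocytes, had 301 counts in AXL KO hypoxia and 12 in AXL KO normoxia, against 0 in AXL WT hypoxia and 1 in AXL WT normoxia, and was at least 104-fold higher in AXL KO in hypoxia.

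Of 12 genes of the engulfment machinery, 6 were higher and 4 lower in AXL KO in hypoxia, and 7 higher and 2 lower in normoxia. The shares of all genes were 29.9% and 33.0% in hypoxia and 29.7% and 30.0% in normoxia. The hypoxia counts were 4 higher and 3 lower without AXL WT hypoxia libraries 2 and 3. The engulfment receptor Megf10 was higher in AXL KO than in AXL WT by 2.36 ± 0.16 in hypoxia and 1.74 ± 0.15 in normoxia on the log2 scale. Its adaptor Gulp1 was higher in AXL KO by 2.87 ± 0.28 and 2.26 ± 0.25. Abca1, a lipid transporter, had opposite signs, at −1.96 ± 0.23 in hypoxia (adjusted p = 1.91e-05) and 0.80 ± 0.22 in normoxia (adjusted p = 0.00821). The related Abca7 was higher in AXL KO by 1.28 ± 0.18 in hypoxia and 0.62 ± 0.18 in normoxia (adjusted p = 6.88e-05 and 0.00884).

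Among 23 adaptors and effectors downstream of the receptors, 8 were higher, 5 lower and 10 not called in AXL KO in hypoxia (median log2 fold change 0.12), and 6 were higher, 6 lower and 11 not called in normoxia (median −0.07). The shares of all genes were 29.9% higher and 33.0% lower in hypoxia and 29.7% higher and 30.0% lower in normoxia. Pik3r1, the regulatory subunit of PI3-kinase, had the largest log2 fold change of the list, at 464 ± 53.2 CPM in AXL KO hypoxia and 729 ± 86.1 CPM in AXL KO normoxia, against 60.9 ± 13.4 CPM in AXL WT hypoxia and 73.2 ± 4.01 in AXL WT normoxia. The kinase gene Akt2 was higher in AXL KO by 1.09 ± 0.09 in hypoxia and 1.13 ± 0.09 in normoxia on the log2 scale. Pik3r2, another regulatory subunit of PI3-kinase, was lower in AXL KO, at −0.61 ± 0.08 in hypoxia and −0.42 ± 0.08 in normoxia (adjusted p = 5.6e-05 and 0.000854). The adaptor gene Nck2 had opposite signs, at −0.72 ± 0.08 in hypoxia and 0.88 ± 0.08 in normoxia (adjusted p = 1.58e-05 and 2.63e-06).

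Of 18 factors reported to regulate Axl or Mertk, 5 were higher and 3 lower in AXL KO in hypoxia, and 9 were higher and 1 lower in normoxia. Over all genes 29.9% were higher and 33.0% lower in hypoxia, and 29.7% higher and 30.0% lower in normoxia. Without AXL WT hypoxia libraries 2 and 3, 6 were higher and 5 lower in hypoxia. Epas1, which encodes HIF-2alpha, averaged 34.6 ± 0.855 CPM in AXL KO hypoxia and 66.3 ± 14.7 CPM in AXL KO normoxia, against 2.99 ± 0.418 CPM in AXL WT hypoxia and 3.53 ± 0.394 in AXL WT normoxia. On the log2 scale it was higher in AXL KO by 3.54 ± 0.18 in hypoxia (adjusted p = 1.87e-08) and 4.23 ± 0.18 in normoxia (adjusted p = 4.62e-09). Tead1, a partner of YAP, had opposite signs, at −0.77 ± 0.15 in hypoxia and 0.39 ± 0.15 in normoxia (adjusted p = 0.00103 and 0.0467). Tead2, a related partner, was higher in AXL KO in hypoxia (0.82 ± 0.22, adjusted p = 0.00655), but only by 0.26 without those 2 libraries. In normoxia it had −0.34 ± 0.22 (adjusted p = 0.2). Wwtr1, which encodes TAZ, was higher in AXL KO by 0.58 ± 0.12 in hypoxia and 0.33 ± 0.12 in normoxia (adjusted p = 0.00105 and 0.0273).

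Hnrnpul1, which lies 2516 bases from Axl, averaged 559 ± 8.63 CPM in AXL KO hypoxia and 388 ± 5.72 CPM in AXL KO normoxia, against 217 ± 8.92 CPM in AXL WT hypoxia and 221 ± 6.34 in AXL WT normoxia. It was higher in AXL KO, by 1.37 ± 0.07 in hypoxia and 0.81 ± 0.07 in normoxia, where Axl was lower. Cyp2s1, 13770 bases away on the other side, reached 49.0 ± 5.59 CPM in AXL KO hypoxia and a mean of at most 0.274 CPM in the other groups. Around Gas6 the genes Grk1, Tmem255b and 1700029H14Rik had at most 11 counts per group, and Rasa3 was counted in both genotypes, with a log2 fold change of AXL KO against AXL WT of 1.03 ± 0.47 in hypoxia (adjusted p = 0.076) and 0.52 ± 0.46 in normoxia (adjusted p = 0.345). Beside Mertk, Anapc1 was lower in AXL KO in normoxia (−0.62 ± 0.12) and Tmem87b higher (0.81 ± 0.23), while Fbln7, an extracellular matrix protein gene, was higher by 5.68 ± 0.44.

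Other genes whose levels over the 12 libraries were most like those of the 5 were ranked by Pearson correlation of log2 CPM among 13427 protein-coding genes. These values describe the libraries, which share their groups, and carry no test. Closest to Axl were Zfp251 (r = 0.998), Pex5l (0.997) and Soga3 (0.997), and the first 2 had no count in AXL KO. For Gas6 they were Ttc9 (1.00), Boc (0.999) and Bmp4 (0.999), and Ttc9 and Bmp4 had 0 to 1 counts in each AXL WT group. For Mertk they were Tmbim4 (0.985), Copb1 (0.981) and Stat3 (0.980). Stat3 averaged 428 ± 18.3 CPM in AXL KO hypoxia and 353 ± 27.1 CPM in AXL KO normoxia, against 357 ± 57.0 CPM in AXL WT hypoxia and 142 ± 12.8 in AXL WT normoxia. Tyro3 came closest to Tmem37 (0.987), Tirap (0.986) and Sh3bp5 (0.985), and Pros1 to Fbxl15 (0.984), 1500015O10Rik (0.979) and Eci1 (0.977).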

How the data were processed

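Total RNA of 12 samples was sequenced. The deposited values are counts per gene: per the file headers, the authors counted fragments with featureCounts 1.6.0 on the reverse strand (strand setting 2), Ensembl release 93. Per the submitters' processing notes, reads were aligned to GRCm38 with STAR 2.5.1b and counted with featureCounts 1.4.6, and DESeq2 1.12.3 was used. The sources used here give no reason for the 2 versions. Counts per gene do not resolve isoforms.

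Counts were fitted with edgeR 4.0.16 in R 4.3.3 (filterByExpr, TMM, robust quasi-likelihood, 1 mean per group, 12 libraries, 8 residual degrees of freedom), tested on simulated data first. A standard error is the size of the log2 fold change divided by the root of its F statistic. Groups at 0 counts were given a floor of 3 counts over the group. Alternatives were RLE factors, library size alone, testing without a filter, a stricter filter (5 CPM in 3 libraries), limma-voom (limma 3.58.1) with weights per group, DESeq2 1.42.0, a replicate block, the 6 compared libraries, and libraries left out. Named genes were up to 4 per list by the smallest adjusted p in AXL KO against WT in hypoxia, the 5 receptor kinases of highest level per group, the 2 nearest coding genes on each side of each gene, and the 3 most correlated. The genes and lists were chosen with earlier results of these data known.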

Additional observations from a re-analysis of the deposited data

Results flagged for a closer look

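The hypoxia response differed between the genotypes for 2 of the 5 genes, by the interaction test of the edgeR model. Gas6 had no value for this difference, and 28.8% of all genes tested were called. For Mertk the difference of the log2 responses, AXL KO minus AXL WT, was −2.33: the response was 0.12 in AXL KO and 2.44 in AXL WT. For Pros1 the difference was −4.12: the response was −1.55 in AXL KO and 2.56 in AXL WT. Leaving out AXL WT hypoxia libraries 2 and 3 gave −2.68 and −2.58.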

How the results depend on the processing

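Among refitted fold changes of the 5 genes, 442 kept their direction and their side of the threshold, 20 lost a call, 5 gained one and 12 changed sign. Tyro3 in AXL KO against WT in hypoxia lost its call with no filter (−0.32), limma-voom (−0.35) and the 6 compared libraries (−0.41), and ran from −0.48 to −0.28 with single libraries left out. Tyro3 in normoxia lost it with no filter (−0.32) and ran from −0.35 to −0.28. Mertk in AXL KO against WT in hypoxia, never far from 0, turned to −0.12 with library size alone, −0.0402 with the strict filter, −0.0095 with the 6 compared libraries and −0.31 without AXL WT hypoxia libraries 2 and 3, and ran from −0.13 to 0.25 with single libraries left out. Mertk for hypoxia in AXL KO turned to −0.0890 with library size alone. Pros1 in AXL KO against WT in normoxia gained a call with limma-voom (0.56), the 6 compared libraries (0.56) and without AXL WT hypoxia libraries 2 and 3 (0.57), and ran from 0.50 to 0.64 with single libraries left out. The Tyro3 difference of responses was 0.0633 with library size alone and 0.00049 with no filter, and ran from −0.14 to 0.0568. Genes called for the difference of responses ran from 3582 to 8417 (4830 with all libraries), with 8417 without AXL WT hypoxia library 1. The Tyro3 share in AXL WT hypoxia was 1.80% in library 1 alone. The cause of these changes was not tested.

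With the replicate number as a block, Tyro3 in AXL KO against WT was −0.36 in hypoxia (adjusted p = 0.0501) and −0.34 in normoxia (adjusted p = 0.0596), and no other call on the 5 genes changed. Same-numbered libraries correlated from −0.065 to 0.142 in their deviations from group means, and different-numbered ones from −0.264 to 0.221. The labels do not say what the numbers stand for, so this check cannot settle whether libraries were paired.

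Without AXL WT hypoxia libraries 2 and 3, an alternative chosen after the data were seen, these marker counts for AXL KO against WT in hypoxia moved by 1.5 times or more, beside the list counts given above: 1 fibroblast marker was lower in place of 3, 0 endothelial markers in place of 2 and 5 luminal markers in place of 3, and 4 hypoxia check genes were higher in place of 6.

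Depth limits Gas6 in AXL WT: 0 counts in hypoxia allow only a bound, and 1 count in normoxia gives a ratio with a wide counting interval.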
